A study of Mus musculus with 12 samples.

Results

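The genetic interaction of Gadd45a and Ing1 loss was measured in gonadal white fat as the departure of the double knockout from the sum of the single knockouts. For every gene it is (DKO minus Gadd45a-KO) minus (Ing1-KO minus WT) on the log2 scale, where DKO is the label of mice lacking both genes. The contrast used 12 of 12 arrays in the series, 3 for each of 4 genotype labels, and every probe that is no control. It was tested for 31453 genes or unnamed probes, of which 15954 carry a gene name. A positive value says that the DKO arrays lay above the additive level, a negative value that they lay below it, and 0 says that the effects of the losses add up.

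All animals were male, of strain C57BL/6N, and between 59 and 67 days old. WT animals carry both genes. Gadd45a-KO animals are Gadd45a-/-, Ing1-KO animals are Ing1-/-, and DKO animals, Gadd45a-/-;Ing1-/-, came from crosses of those lines, which lack the genes in the whole body and not in fat alone. Every array holds total RNA pooled from 3 animals, so that 9 animals stand behind a genotype and the spread between arrays is a spread between pools. The whole fat pad was homogenized, and in such bulk RNA fewer cells of a type and less RNA per cell cannot be told apart.

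Gadd45a encodes a small stress-induced protein that has no catalytic activity of its own. It binds partners in DNA repair, in stress kinase signalling and in active DNA demethylation. Ing1 encodes a plant homeodomain protein that reads trimethylated lysine 4 of histone H3 at active promoters and belongs to a Sin3-HDAC repressor complex. ING1 is known to direct GADD45A to such promoters in demethylation. The contrast asks whether the effect of losing either gene depends on the presence of the other.

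The median processed signal of the arrays lay between 39.3 and 68.8 intensity units, with WT replicate 2 the dimmest, and between 58.2% and 68.1% of spots were well above background. The 7 arrays in the upper slide row had 58.2% to 61.97% of spots above background, and the 5 in the lower row (WT replicate 3, Gadd45a-KO replicates 1 and 2, Ing1-KO replicate 3 and DKO replicate 1) had 63.37% to 68.11%. Each replicate number is 1 slide with 1 array of every genotype, so that the interaction can be read within each number. White adipocyte markers were measured for 25 of 25 genes, with a summed signal of 1633800 to 3015920 units over the arrays, against 968 to 1344 for markers of the epididymis, the organ this fat pad lies on, of which 4 of 26 passed the filter on dim probes.

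Ing1 itself showed that the knockout labels hold for that gene. Its log2 signal was 12.45, 12.43 and 12.49 on the WT arrays and 12.50, 12.37 and 12.78 on the Gadd45a-KO arrays. It was 9.28, 9.54 and 9.37 on the Ing1-KO arrays and 9.13, 9.23 and 9.60 on the DKO arrays. The groups with and without the gene did not overlap, and the loss was -3.06 ± 0.14 (log2, SE) with Gadd45a present and -3.23 ± 0.14 without it. The interaction of Ing1 was -0.17 ± 0.20, adjusted p = 0.819 by limma. These values are from the brightest Ing1 probe, and the fall was larger on the others. Another probe, well above background on 10 arrays, had means of 10.90, 10.96, 4.07 and 4.30 in WT, Gadd45a-KO, Ing1-KO and DKO. A further probe, well above background on 6 arrays, had 8.13, 8.46, 2.42 and 2.26. Their interactions were 0.17 and -0.49, so the sign differed between probes.

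Gadd45a went against its labels. Its probe read 9.33, 9.80 and 9.41 on the WT arrays and 9.30, 9.25 and 9.06 on the Ing1-KO arrays. It read higher on all arrays labelled as lacking it, at 10.27, 10.19 and 10.05 for Gadd45a-KO and at 10.60, 10.62 and 10.61 for DKO. The position of the deleted part against this probe is not given in the sources used here, so the probe checks nothing, and the groups are named by their labels throughout. If WT were exchanged with Gadd45a-KO and Ing1-KO with DKO, every interaction value would keep its size and its p and turn its sign. The additive level for DKO was 9.86 against a measured mean of 10.61, an interaction of 0.75 ± 0.19 (unadjusted p = 0.00182, adjusted p = 0.728 by limma).

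Across the whole array, differences between group means were wider for DKO minus Gadd45a-KO than for Ing1-KO minus WT. Whether these spreads differ beyond the spread between pools was not tested. The standard deviation over genes of DKO minus Gadd45a-KO was 0.55 on the log2 scale, and that of Ing1-KO minus WT was 0.35. With an adjusted p below 0.05 by limma, 4704 of 31453 genes (15%) changed in DKO against Gadd45a-KO, and 1 gene (0.00318%), Ing1, changed in Ing1-KO against WT. A call in the first comparison and none in the second does not show that the effects differ, since the interaction is the test of that difference. The interaction passed for 0 genes (0%), with a smallest adjusted p of 0.633. At an unadjusted p below 0.05, 1866 genes (5.93%) passed, 725 positive (2.31%) and 1141 negative (3.63%). The interaction is by construction less precise than a difference between a pair of groups, with a median standard error of 0.30 against 0.21.

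The count of 4704 moved far with single arrays and with a term for array column. Columns were not balanced over genotypes, with DKO in columns 2 and 3 only and Ing1-KO in columns 1 and 3 only. A column term also leaves fewer residual degrees of freedom, so its count does not show an effect of position alone. It was between 539 (without Gadd45a-KO replicate 3) and 7065 (without DKO replicate 3) when 1 array was left out, 6086 with the replicate number as a block, 299 without the 2 arrays highest in muscle transcripts and 3 with array column as a term. The other arrays whose absence moved it by over 1.5 times were DKO replicates 1 and 2 (887 and 639), Gadd45a-KO replicate 2 (1079) and Ing1-KO replicate 3 (3046). In each of these fits the interaction still passed for 0 genes.

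The effects of Ing1 loss with and without Gadd45a ran the same way for 70.9% of genes, and their correlation across genes was 0.50. These differences share no array, but all 12 arrays share 3 slides. Leaving out 1 array moved the correlation between 0.35 (without WT replicate 3) and 0.56 (without WT replicate 2). It was 0.31 with no filter on dim probes and 0.61 over genes above background on all arrays. The effects of the Gadd45a labels with and without Ing1 ran the same way for only 33.3% of genes, with a correlation of -0.30 (between -0.37 and -0.14 with 1 array left out). That correlation was -0.16 with no filter, -0.45 with normexp background correction and -0.45 over genes above background on all arrays. In those comparisons 0 genes (0%) passed in Gadd45a-KO against WT and 1 gene (0.00318%), Gadd45a, in DKO against Ing1-KO. At an unadjusted p below 0.05 by limma the counts were 739 and 1103 of 31453 tested. Both are smaller than the 1866 (5.93%) of the interaction, and no effect of the Gadd45a labels is read from them.

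**Figure D1:**
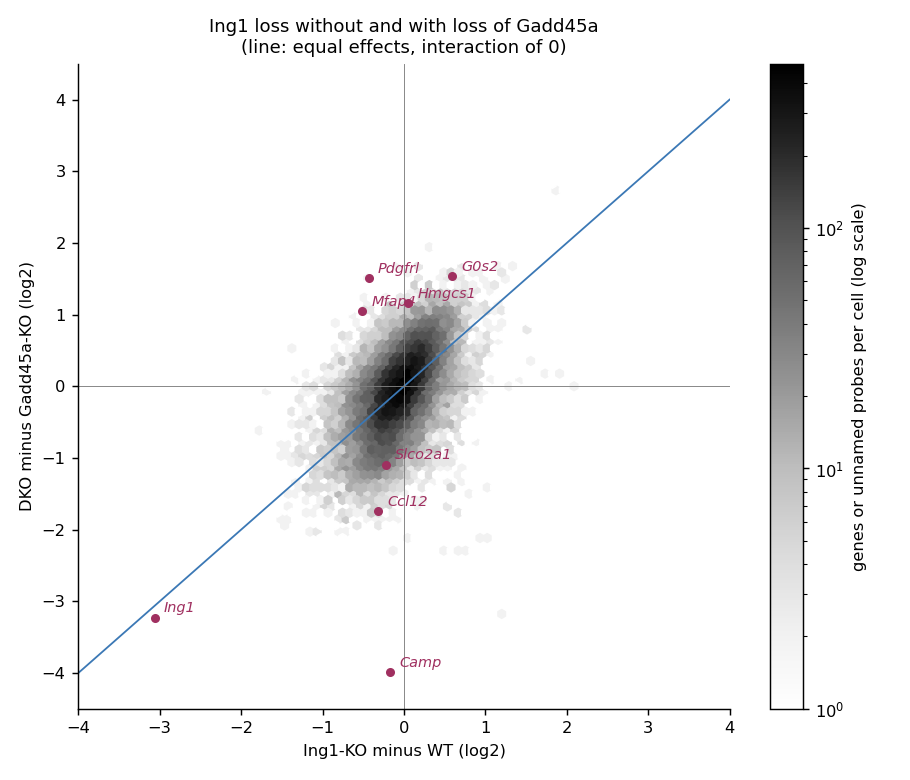
Each cell of the grey map counts genes or unnamed probes by their log2 difference Ing1-KO minus WT (x axis) and DKO minus Gadd45a-KO (y axis), with the line marking equal effects and named genes in colour. The cloud is wider along y than along x (standard deviation 0.55 against 0.35), which is a spread and not a slope. Ing1 lies near the line, and Camp lies at -0.17 on the x axis and -3.99 on the y axis.

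Among the 1866 genes at an unadjusted p below 0.05, the genotype whose mean lay farthest from the other 3 was DKO for 1025 (54.9%, against 41.8% of all genes) and Gadd45a-KO for 718 (38.5%, against 28.1%). It was Ing1-KO for 58 (3.11%, against 12.1% of all genes) and WT for 65 (3.48%, against 17.9%). DKO was the high group for 409 and the low group for 616, and Gadd45a-KO was the high group for 462 and the low group for 256. These splits by direction have no share over all genes beside them. Either DKO or Gadd45a-KO was the group that stood apart for most of these genes, but this also held for most of all genes. These counts describe genes picked by the contrast itself and carry no test.

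The 24 genes described next have the smallest p in each direction among named genes well above background in every genotype, 12 per direction, with Gadd45a itself among the positive ones. None passed the adjusted threshold, so their values are descriptions. Within the 3 replicate numbers the sign was the same for 23 of 24, G0s2 being the exception. Over all genes tested, 14.5% were positive and 13.9% negative in all 3 numbers, and since the genes were chosen on this contrast nothing is read from the difference.

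The gene with the smallest p was Ccl12, a chemokine that draws monocytes through the receptor CCR2. Its log2 signal was 9.80, 9.78 and 9.90 in WT and 10.87, 10.66 and 10.64 in Gadd45a-KO. It was 9.30, 9.51 and 9.71 in Ing1-KO and 8.85, 8.83 and 9.28 in DKO. All Gadd45a-KO arrays lay above all WT arrays, all DKO arrays lay below all Ing1-KO arrays, and the groups did not overlap. The additive level for DKO was 10.41 and the measured mean 8.98, an interaction of -1.42 ± 0.21 or 2.68-fold below the additive level (unadjusted p = 2.01e-05, adjusted p = 0.633 by limma). Its adjusted p ranged from 0.064 (without DKO replicate 3) to 0.984 over the alternatives, while the value stayed between -1.57 and -1.28.

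Other inflammatory genes had the same order of groups. Clec4e encodes Mincle, a C-type lectin receptor of macrophages. Its signal was 6.61, 6.14 and 6.19 in WT, 7.38, 7.49 and 7.40 in Gadd45a-KO, 6.07, 6.44 and 6.16 in Ing1-KO, and 5.93, 5.31 and 6.31 in DKO. The Gadd45a-KO arrays stood above the other 9, which overlapped, and the interaction was -1.48 ± 0.34. Cd300c2, a receptor of myeloid cells, had means of 10.23, 10.73, 9.68 and 9.12 in WT, Gadd45a-KO, Ing1-KO and DKO and an interaction of -1.06 ± 0.23. Camp, the cathelicidin peptide of neutrophil granules, was 11.95, 10.55 and 9.08 in Gadd45a-KO. It was 8.13, 7.11 and 6.68 in WT, 8.18, 6.46 and 6.77 in Ing1-KO, and 6.35, 6.75 and 6.50 in DKO. The Gadd45a-KO arrays of Camp were the highest and spanned nearly 3 log2 units, and the interaction was -3.82 ± 0.90, with another probe at -2.94.

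Pla2g4a encodes the cytosolic phospholipase that releases arachidonic acid from membranes. It was 9.32, 9.34 and 9.29 in Gadd45a-KO, and between 8.63 and 8.90 on the other 9 arrays, so that the Gadd45a-KO arrays alone stood apart. Its interaction was -0.68 ± 0.15, and within the replicate numbers it was -0.68, -0.66 and -0.70, the tightest agreement of the 24. Slco2a1, the transporter that takes prostaglandins into cells, was 10.26, 10.03 and 10.29 in Gadd45a-KO and 9.66, 9.49 and 9.32 in WT. It was 9.45, 9.27 and 9.08 in Ing1-KO and 9.13, 9.14 and 9.03 in DKO. Its interaction was -0.87 ± 0.19, and WT overlapped Ing1-KO, which overlapped DKO. Abcg1, a cholesterol exporter of macrophages, had means of 12.59, 13.01, 12.27 and 11.98 in WT, Gadd45a-KO, Ing1-KO and DKO and an interaction of -0.71 ± 0.16.

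The other negative genes have varied functions. Epb41l3, a membrane skeleton protein, was 9.56, 9.52 and 9.57 in WT, 10.03, 10.15 and 9.99 in Gadd45a-KO, 9.50, 9.53 and 9.35 in Ing1-KO, and 9.18, 9.16 and 9.24 in DKO. Its Gadd45a-KO arrays were the highest and its DKO arrays the lowest, with no overlap of either with another group, and the interaction was -0.77 ± 0.14. Hpse, the heparanase that cuts heparan sulfate, had -0.89 ± 0.20 with -0.78 on another probe. Rtn1, a reticulon of the endoplasmic reticulum, had -0.73 ± 0.16. Csmd1, a complement-regulating membrane protein, and Tspan10, a tetraspanin, had -1.59 ± 0.31 and -1.61 ± 0.33. In both, DKO was the group farthest from the others, at a mean of 5.92 for Csmd1 and 6.47 for Tspan10.

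**Figure D2:**
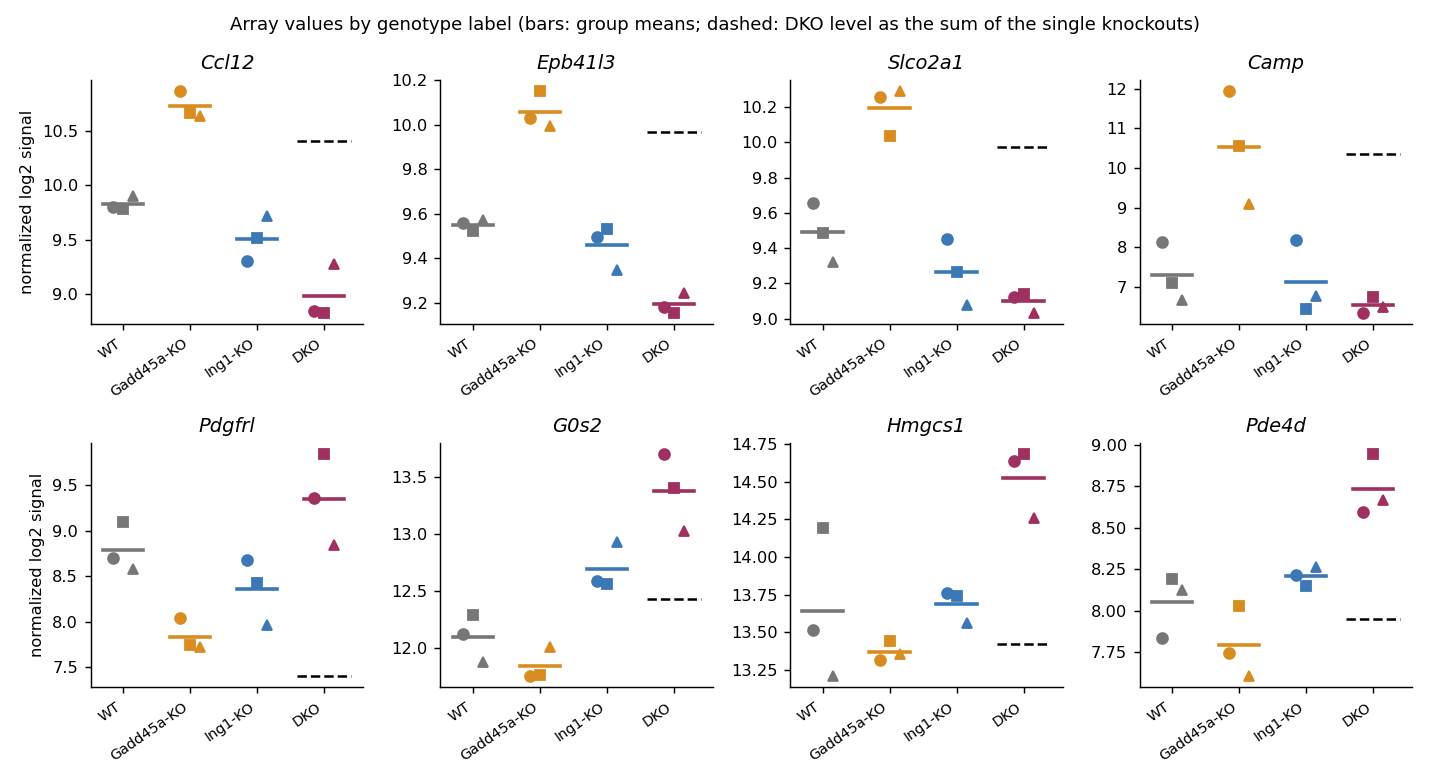
Points give the normalized log2 signal (y axis, a different range per panel) on each array of the 4 genotype labels (x axis; circle, square and triangle are replicates 1, 2 and 3), solid bars the group means and the dashed bar the additive level for DKO. In the upper row the DKO mean lies below that level (8.98 against 10.41 for Ccl12), and in the lower row above it (9.34 against 7.40 for Pdgfrl).

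Among the 12 positive genes chosen by p, the interaction was largest for Pdgfrl, a gene named for its likeness to the platelet-derived growth factor receptor. It was 8.70, 9.10 and 8.58 in WT, 8.04, 7.74 and 7.72 in Gadd45a-KO, 8.68, 8.43 and 7.97 in Ing1-KO, and 9.36, 9.84 and 8.84 in DKO. The Gadd45a-KO arrays overlapped Ing1-KO at its lowest array, and DKO overlapped WT. The interaction was 1.94 ± 0.36, or 3.84-fold above the additive level of 7.40. Mfap4, a microfibril protein of the extracellular matrix, was 9.45, 9.01 and 8.24 in DKO and between 7.61 and 8.37 on the other arrays, with an interaction of 1.56 ± 0.35.

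G0s2 encodes the inhibitor of adipose triglyceride lipase. It was 12.12, 12.29 and 11.88 in WT, 11.75, 11.76 and 12.001 in Gadd45a-KO, 12.58, 12.56 and 12.93 in Ing1-KO, and 13.70, 13.40 and 13.02 in DKO. The DKO arrays were all above the Ing1-KO arrays, which were all above the others. The interaction was 0.94 ± 0.25, carried by replicate numbers 1 and 2 at 1.49 and 1.37, with -0.03 in number 3. Hmgcs1 encodes the cytosolic synthase that makes hydroxymethylglutaryl-CoA for cholesterol. It was 13.51, 14.19 and 13.21 in WT, 13.31, 13.44 and 13.36 in Gadd45a-KO, 13.76, 13.74 and 13.56 in Ing1-KO, and 14.64, 14.68 and 14.26 in DKO. Each DKO array was above each other array, and the interaction was 1.11 ± 0.29. Hsd17b7, which acts later in the same pathway, was 8.54, 8.76 and 8.35 in DKO, 7.74, 7.94 and 7.80 in Gadd45a-KO, and between 7.93 and 8.42 on the WT and Ing1-KO arrays. Its interaction was 0.80 ± 0.23, with 0.72 on another probe.

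Pde4d, a phosphodiesterase that breaks down cyclic AMP, was 8.59, 8.94 and 8.67 in DKO, above all other arrays, which lay between 7.61 and 8.26. Its interaction was 0.78 ± 0.22, and 0.46 on another probe. Ide, the insulin-degrading enzyme, had means of 11.04, 10.24, 10.60 and 10.84 in WT, Gadd45a-KO, Ing1-KO and DKO and an interaction of 1.04 ± 0.29. The mean of each single knockout was below that of WT, and the DKO mean lay between them and WT. Osgin1, an oxidative stress response gene, was 0.93 ± 0.27, Pgc, which encodes the pepsinogen progastricsin, 1.20 ± 0.31, Nanog, known as a pluripotency factor, 0.83 ± 0.22, and Fubp3, a single-stranded nucleic acid binding protein, 0.61 ± 0.17. The adjusted p of every gene named in the paragraphs on single genes, Ccl12 and Ing1 apart, was 0.728 by limma.

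**Figure D3:**
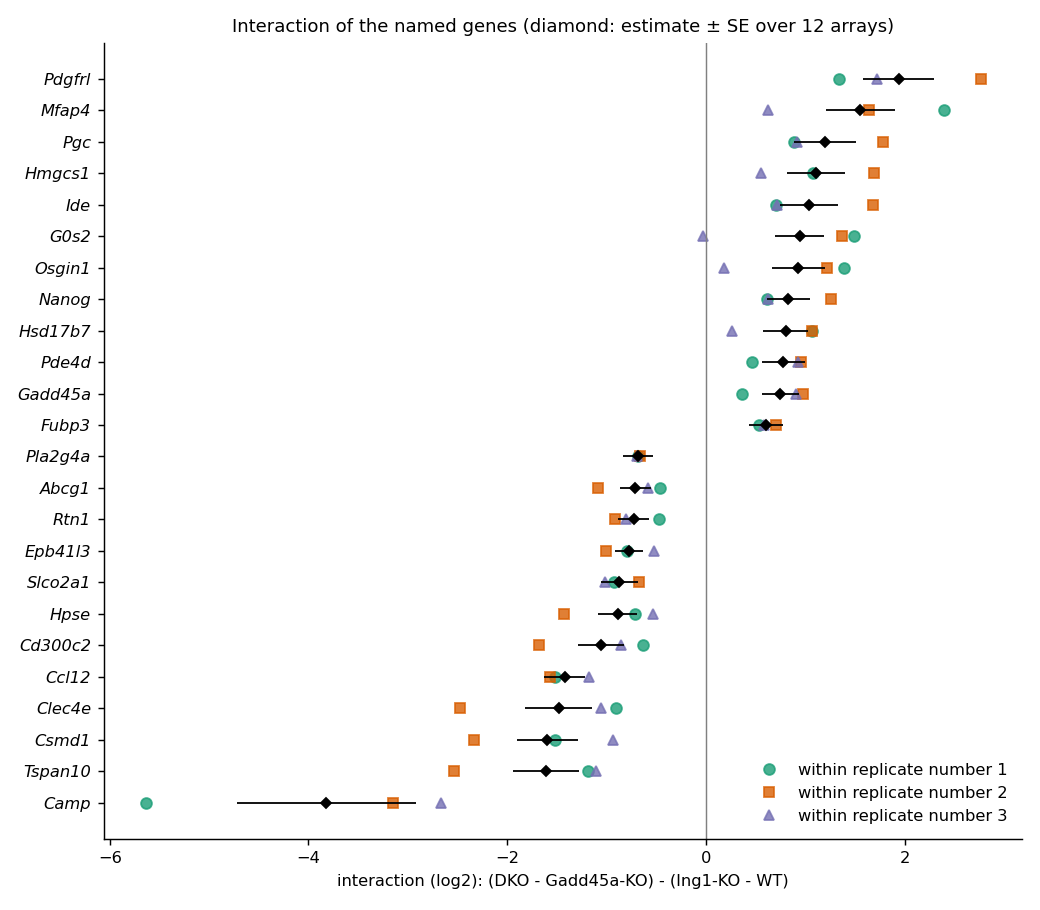
For the 24 genes (y axis) the diamonds and bars give the interaction on the log2 scale (x axis) with its standard error over 12 arrays, and the coloured points give the same contrast within replicate numbers 1, 2 and 3. G0s2 alone has a point on the other side of 0 (-0.03 in number 3), and the widest scatter is that of Camp (-5.64, -3.15 and -2.67).

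Promoters of Hmgcs1 and Hsd17b7 are shown because they are the cholesterol genes among the 24. The sequences run from 250 bases before to 50 after the start site, in RefSeq on GRCm38.p6. Hmgcs1 lies at chr13:119690101-119690400 on the plus strand and Hsd17b7 at chr1:169969156-169969455 on the minus strand. Capitals mark ATTGG, the reverse complement of CCAAT, in both; TCACCCCAC, which matches the sterol regulatory element TCACNCCAC, in Hmgcs1; and CACGTG, the E-box, in Hsd17b7.
Hmgcs1: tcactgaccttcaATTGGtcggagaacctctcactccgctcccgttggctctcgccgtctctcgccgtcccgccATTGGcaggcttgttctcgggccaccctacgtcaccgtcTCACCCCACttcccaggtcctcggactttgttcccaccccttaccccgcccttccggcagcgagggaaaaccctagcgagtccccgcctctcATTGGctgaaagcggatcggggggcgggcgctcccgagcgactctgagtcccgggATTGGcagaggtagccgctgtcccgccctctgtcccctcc
Hsd17b7: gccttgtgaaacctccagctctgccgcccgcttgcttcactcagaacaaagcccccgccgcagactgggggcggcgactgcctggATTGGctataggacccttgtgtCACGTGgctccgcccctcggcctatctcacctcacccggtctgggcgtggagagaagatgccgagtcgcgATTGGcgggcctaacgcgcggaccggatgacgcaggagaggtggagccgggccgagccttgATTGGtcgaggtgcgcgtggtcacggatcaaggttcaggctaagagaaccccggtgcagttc
The CCAAT box stood 4 times in the Hmgcs1 promoter and 3 times in that of Hsd17b7. The same letters, on either strand, were in 37.4% of 32851 RefSeq promoters of 300 bases. Of 20 measured cholesterol genes 12 had an entry, with 15 promoters, and 12 of those 15 held CCAAT, at least 1 for each of the 12 genes. The sterol regulatory element was in 1 of the 15 (1.24% of all promoters) and the E-box in 3 (7.15%). AP-1 (TGACTCA) was in 1 (5.2%), and the C/EBP palindrome TTGCGCAA (0.183%) and the CRE TGACGTCA (1.79%) were in 0. CCAAT and the sterol element were added to the search after the values were seen. No motif match overlapped another in the printed sequences.

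The cholesterol list as a whole lay above the additive level. Cholesterol is made from acetyl-CoA through mevalonate and squalene, and the genes are known to be switched on together by SREBP2 when sterols are scarce. The median interaction of its 20 measured members was 0.54, against 0.01 over all genes tested, and 18 of 20 were positive, against 51.2% of all genes. At an unadjusted p below 0.05, 7 were positive and 0 negative, beside 2.31% and 3.63% of all genes, and 0 passed the adjusted threshold. Besides the pair above, Sqle, the squalene epoxidase, had 0.82 ± 0.30. Insig1, a sterol-sensing regulator named here after its value was seen, was the highest at 1.28 ± 0.50. The median was 0.47, 0.96 and 0.28 within replicate numbers 1, 2 and 3.

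Lists were set against the background shares given here throughout, and their members move together, so that a count is no number of independent events. Some genes belong to several lists, so that lists are not independent of each other either. Fatty acid oxidation, which shortens acyl chains in mitochondria, had a median of 0.59 over 22 members, with 21 positive and 7 of them at an unadjusted p below 0.05. Hadh, the dehydrogenase of the third step, was 14.29, 14.58 and 14.23 in WT, 14.27, 14.15 and 13.81 in Gadd45a-KO, 14.57, 14.71 and 14.73 in Ing1-KO, and 15.31, 15.21 and 14.84 in DKO. The DKO arrays were the highest, and the interaction was 0.74 ± 0.22. The acyl-CoA dehydrogenases Acadl and Acadm had 0.57 ± 0.20 and 0.69 ± 0.27. Over the list, Ing1 loss had a median of 0.33 with Gadd45a and 0.93 without it.

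The next steps of fuel burning had values of the same size. The citrate cycle had a median of 0.54 over 19 members, all positive, 5 at an unadjusted p below 0.05, with Sucla2, a subunit of succinyl-CoA ligase, at 0.72 ± 0.29. The respiratory chain had 0.50 over 28 members, all positive, 7 at an unadjusted p below 0.05. Atp5o, a subunit of ATP synthase, had 0.71 ± 0.26 and Sdha, the flavoprotein of succinate dehydrogenase, 0.46 ± 0.19. Breakdown of branched-chain amino acids had 0.48, with 18 of 19 positive and 6 at an unadjusted p below 0.05. Dbt, of the branched-chain dehydrogenase complex, had 0.64 ± 0.23.

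De novo lipogenesis, the making of fatty acids from glucose, had the highest median, 0.67, with 19 of 19 positive but 2 at an unadjusted p below 0.05. Its median under Ing1 loss was -0.05 with Gadd45a and 0.60 without it. Scd1, the stearoyl-CoA desaturase, was 17.59, 17.92 and 17.39 in WT and 17.83, 17.62 and 17.46 in DKO, which overlapped. Its Gadd45a-KO arrays were 17.56, 17.25 and 16.89 and its Ing1-KO arrays 17.38, 17.49 and 17.51, and the interaction was 0.57 ± 0.26. Triglyceride synthesis had 0.46 over 14 members, of which 0 positive and 1 negative had an unadjusted p below 0.05. Lipolysis and lipid droplet genes had 0.34 over 18, with 4 positive and 0 negative at that p and Mgll, the monoglyceride lipase, at 0.69 ± 0.31. Insulin signalling and glucose uptake had 0.29 over 20, with 3 positive and 0 negative.

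Markers of the white adipocyte had a median of 0.51, with 25 of 25 positive and 5 at an unadjusted p below 0.05. Leptin (Lep), the satiety hormone, was 11.19, 11.06 and 11.49 in WT, 11.07, 11.18 and 10.48 in Gadd45a-KO, 11.49, 11.61 and 11.96 in Ing1-KO, and 12.46, 12.55 and 11.72 in DKO. DKO overlapped Ing1-KO through replicate 3, and the interaction was 0.90 ± 0.34. Resistin (Retn), another secreted product of adipocytes, had 0.92 ± 0.36. The summed signal of these markers was 1763710 to 2743360 units in WT, 1633800 to 1977000 in Gadd45a-KO, 2089740 to 2302980 in Ing1-KO and 2198700 to 3015920 in DKO. It moved with the metabolic lists, and its part in their values was not tested.

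Brown and beige adipocyte markers had a median of 0.59, with 22 of 23 positive, yet 0 positive members at an unadjusted p below 0.05. Ucp1, the uncoupling protein of heat-making fat, was singled out after its values were seen. It was 12.29, 13.93 and 11.58 in WT, 13.24, 13.14 and 10.18 in Gadd45a-KO, 12.71, 13.35 and 13.46 in Ing1-KO, and 15.68, 14.06 and 14.61 in DKO. The DKO arrays were the highest, but Gadd45a-KO spread over 3 log2 units, and the interaction was 2.02 ± 1.10. Tmem26, a beige marker, was the 1 negative member, at -1.03 ± 0.34.

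Immune lists lay below the additive level. Neutrophil markers had the lowest median, -2.09 over the 12 of 16 measured, with 11 negative and 6 at an unadjusted p below 0.05, beside 3.63% of all genes. S100a9, a calcium-binding protein abundant in neutrophils, was 14.79, 13.45 and 11.40 in Gadd45a-KO. It was 11.30, 9.84 and 8.76 in WT, 10.73, 9.27 and 9.45 in Ing1-KO, and 9.11, 9.89 and 9.69 in DKO. The high arrays were those of Gadd45a-KO, they differed among themselves by more than 3 log2 units, and the interaction was -3.50 ± 1.10. Members could pass the filter on dim probes through the Gadd45a-KO arrays alone. The list median was -1.32 with no filter (15 members), -1.30 over the 9 members above background on all arrays, and -1.36 without Gadd45a-KO replicate 1. Cxcr2, the chemokine receptor of neutrophils, was tighter, at 8.90, 8.85 and 8.91 in Gadd45a-KO against 8.43, 7.96 and 7.97 in WT, and had -0.94 ± 0.29. Csf3r and Mmp9, further markers picked out after their values were seen, had -0.06 and 0.10, and both changed sign in some of the alternative fits. The list's summed signal was 129878 to 162906 units in Gadd45a-KO, 113415 to 129845 in WT, 100156 to 111270 in Ing1-KO and 101610 to 114530 in DKO.

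Macrophage markers had a median of -0.53 over 19 of 20, with 18 negative and 6 at an unadjusted p below 0.05. Csf1r, the growth factor receptor that macrophages depend on, was 14.49, 14.38 and 14.21 in WT, 14.85, 14.96 and 14.76 in Gadd45a-KO, 14.30, 14.03 and 14.08 in Ing1-KO, and 13.90, 14.20 and 13.98 in DKO. The Gadd45a-KO arrays were above the rest, Ing1-KO and DKO overlapped, and the interaction was -0.61 ± 0.18. The list median was -0.33, -0.36 and -0.69 within the replicate numbers, and -0.34 without WT replicate 2. The summed signal of macrophage markers was 87526 to 97635 units in Gadd45a-KO, 67754 to 90117 in WT, 64605 to 66796 in Ing1-KO and 54673 to 65817 in DKO. The chemokine and acute phase list, with a median of -0.41 over 22 (-0.64 without WT replicate 1 and -0.19 with normexp background correction), had 5 negative and 2 positive members at an unadjusted p below 0.05. Ccl8, a monocyte chemokine, had -1.76 ± 0.42, with -1.86, -1.87 and -1.54 within the numbers. Il1b, the fever-inducing cytokine, had -1.29 ± 0.37. Saa3, an acute phase protein, was 5.25, 5.26 and 5.27 in DKO and 7.93, 8.99 and 6.86 in Gadd45a-KO, with an interaction of -2.66 ± 0.82.

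Lymphocyte lists had negative medians that came mostly from 1 slide. T cell markers had -0.73, with 20 of 20 negative, but -0.16, -2.04 and 0.01 within replicate numbers 1, 2 and 3. Icos, a T cell costimulator, was 10.22, 9.53 and 10.71 in DKO, 11.33, 11.42 and 11.64 in Gadd45a-KO, 10.28, 11.04 and 10.85 in Ing1-KO, and 11.18, 10.67 and 11.37 in WT, and was the 1 member at an unadjusted p below 0.05 (-0.96 ± 0.40). DKO replicate 2 was the lowest of all 12 arrays for that gene. Without that array the T cell median was -0.31, and without DKO replicate 3 it was -1.06. The summed T cell signal was 39603 to 100921 units in DKO, 128306 to 162330 in Gadd45a-KO, 76098 to 118485 in Ing1-KO and 102601 to 144861 in WT. B cell markers had -0.69 (14 of 14 negative), MHC class II presentation -0.61 (11 of 11 negative) and NK cell markers -0.54 (11 of 14 negative). At an unadjusted p below 0.05 they had 2, 3 and 0 negative members. Without DKO replicate 2 the medians were -0.30, -0.28 and -0.34, and the NK cell value was -0.19 without WT replicate 2 and -0.16 with normexp.

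Genes of cell division had a median of -0.81, with 25 of 25 negative and 13 at an unadjusted p below 0.05. Within the replicate numbers the median was -0.39, -1.91 and -0.03. Birc5, the survivin of dividing cells, was 10.31, 10.04 and 11.05 in DKO, 11.59, 11.67 and 11.72 in Gadd45a-KO, 10.63, 11.32 and 11.01 in Ing1-KO, and 11.49, 10.96 and 11.40 in WT. DKO replicate 2 was again the lowest and DKO replicate 3 overlapped WT, and the interaction was -0.90 ± 0.35. Mcm6, a subunit of the replicative helicase, had -0.84 ± 0.33. Per array, the list's members deviated from their overall mean by an average of -0.63, -0.89 and 0.06 in DKO, 0.29, 0.44 and 0.36 in Gadd45a-KO, -0.33, 0.43 and -0.01 in Ing1-KO, and 0.23, -0.20 and 0.25 in WT. It moved with the T cell list, which read -0.51, -1.38 and 0.02 in DKO, and the part of lymphocytes in it was not tested.

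**Figure D4:**
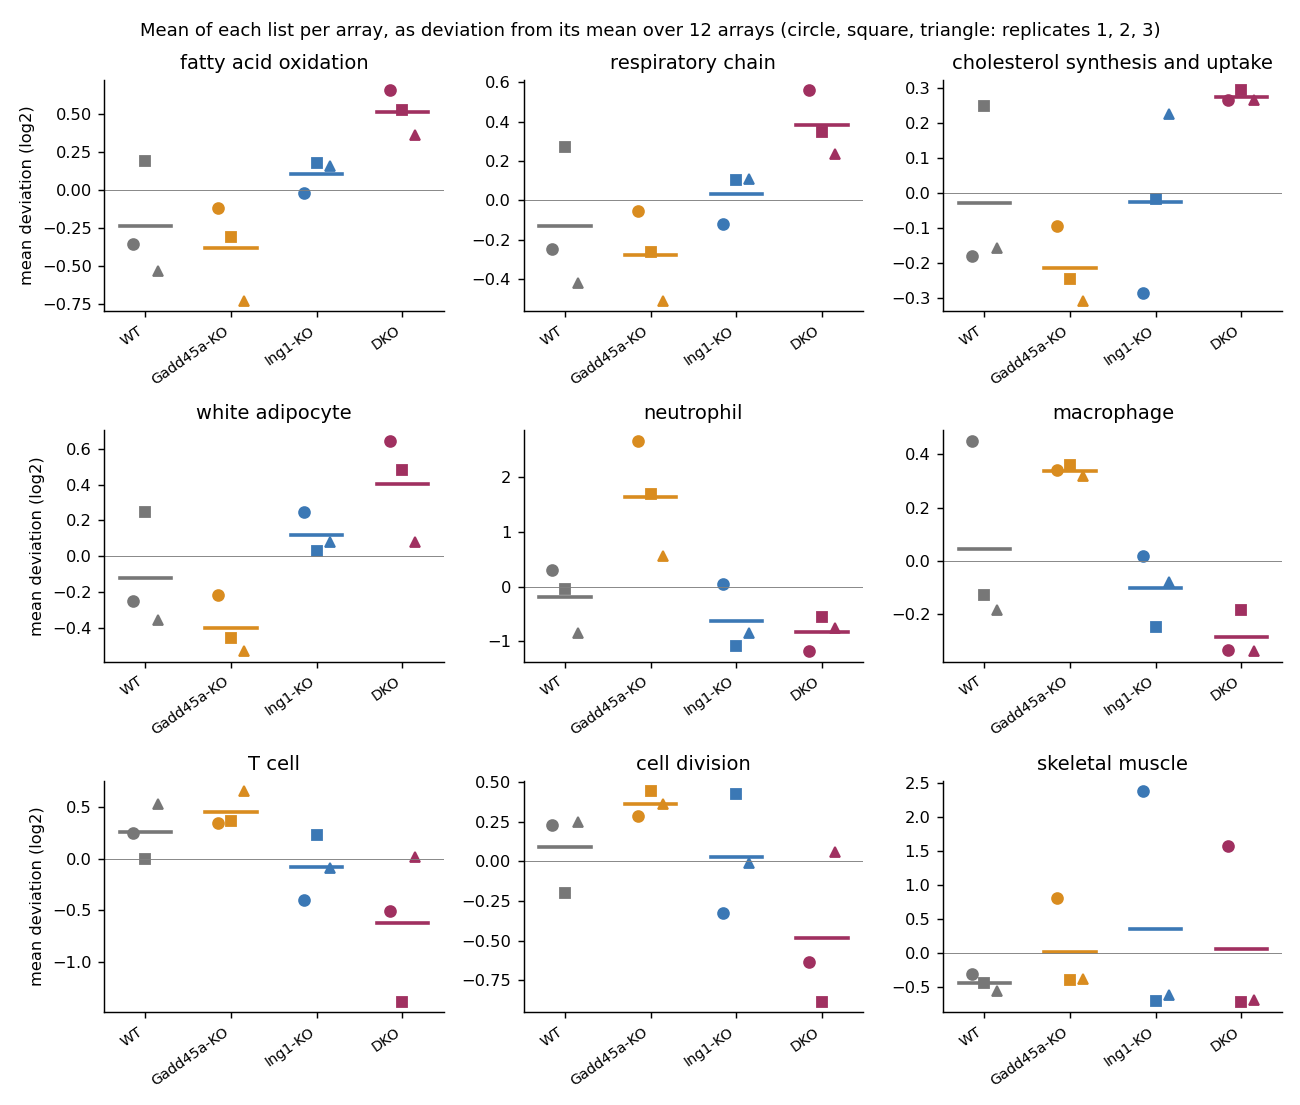
Points are arrays by genotype label (x axis), and the y axis is the mean over a list's members of the log2 deviation from the gene's mean over 12 arrays, with bars for group means. By group mean, DKO is highest for the metabolic and white adipocyte lists and Gadd45a-KO for neutrophil and macrophage markers. Single arrays depart from this. WT replicate 1 is the highest array for macrophage markers (0.45), and DKO replicate 3 (0.08) lies below WT replicate 2 (0.24) for white adipocytes. DKO replicate 2 is the lowest array for T cell markers (-1.38) and cell division (-0.89).

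The medians of the metabolic lists moved with single arrays. The fatty acid oxidation mean was 0.66, 0.53 and 0.36 in DKO, -0.12, -0.31 and -0.73 in Gadd45a-KO, -0.02, 0.17 and 0.16 in Ing1-KO, and -0.36, 0.19 and -0.53 in WT. DKO arrays stood above all others, while WT replicate 2, the dimmest array, stood with Ing1-KO and away from the other WT arrays. Without WT replicate 2 the median was 0.37, and without WT replicate 3 it was 0.77. WT replicate 2 was high in the respiratory chain list too, at 0.27 against -0.25 and -0.42, and replicate number 2 held the largest value of the 3 for all lists of metabolism, of white and brown adipocytes and of adipogenic regulators. The part of its dimness in this was not tested. Without WT replicate 2 the median was 0.28 for the respiratory chain, 0.30 for branched-chain amino acids, 0.41 for lipogenesis, 0.24 for triglyceride synthesis, 0.19 for lipolysis, 0.33 for white and 0.39 for brown and beige adipocytes, all still positive. Without Gadd45a-KO replicate 3 it was 0.34 for the citrate cycle, 0.40 for lipogenesis and 0.22 for triglyceride synthesis. The cholesterol mean was 0.26, 0.29 and 0.27 in DKO, -0.10, -0.25 and -0.31 in Gadd45a-KO, -0.29, -0.02 and 0.23 in Ing1-KO, and -0.18, 0.25 and -0.16 in WT, so that DKO and single arrays of WT and Ing1-KO lay close.

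Skeletal muscle transcripts differed between pools. Their mean deviation was 2.37 in Ing1-KO replicate 1, 1.57 in DKO replicate 1 and 0.81 in Gadd45a-KO replicate 1, and between -0.71 and -0.31 on the other 9 arrays. The summed signal was 14785 to 53531 units in Ing1-KO, 15325 to 28064 in DKO, 12100 to 19182 in Gadd45a-KO and 13877 to 16885 in WT. The list's median interaction was -0.68, with 20 of 24 negative. It was 0.12 without Ing1-KO replicate 1, and -1.27, -0.41, -1.18 and -1.08 without DKO replicates 1 and 2 and Ing1-KO replicates 2 and 3. Without the 2 arrays highest in muscle transcripts, the median was 0.46 for fatty acid oxidation, 0.34 for the respiratory chain, 0.37 for cholesterol, -1.14 for neutrophils and -0.85 for cell division. These kept the sign they had over 12 arrays.

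Lists of genes related in function to the deleted ones had medians near that of all genes. The list of ING family and Sin3-HDAC complex members, which includes Ing1, had a median of -0.13 over 23, with 9 positive. No member of it had an unadjusted p below 0.05 by limma. Suds3, a Sin3 complex subunit, had the smallest p there, at -0.32 ± 0.19. The list of the Gadd45 family and stress kinases had 0.08 over 16. It includes Gadd45a, its highest member at 0.75 and its 1 member at an unadjusted p below 0.05 by limma. Gadd45b and Gadd45g, the paralogs of Gadd45a, had -0.55 ± 0.27 and 0.53 ± 0.31, which point in opposite directions. Excision repair had a median of -0.05 over 24 and p53 targets -0.06 over 24. Of the p53 targets 9 were positive and 15 negative, with values from -0.86 to 0.93. At an unadjusted p below 0.05 by limma, 0 were positive and 2 negative. Mdm2, the ubiquitin ligase that p53 induces, had -0.34 ± 0.15 and Pmaip1, the death-promoting Noxa, -0.86 ± 0.33.

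DNA methylation and demethylation genes had a median of -0.05 over 25, with 1 positive and 3 negative members at an unadjusted p below 0.05. Uhrf1, which guides maintenance methylation at replication, had -0.72 ± 0.30, and Mbd1, a reader of methylated DNA, -0.44 ± 0.16. Wnt pathway genes had a median of 0.01 over 29, with 15 positive, and 0 positive and 5 negative members at an unadjusted p below 0.05. Wnt6, a ligand known to hold back adipocyte formation, was 7.56, 7.60 and 7.68 in Gadd45a-KO and between 6.41 and 7.28 on the other arrays, with -0.88 ± 0.24, and Dkk3 had -0.85 ± 0.25. Circadian clock genes had a median of 0.02 over 19, with 10 positive and 9 negative. At an unadjusted p below 0.05 by limma, 3 were positive and 0 negative. Clock itself had 0.61 ± 0.27.

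**Figure D5:**
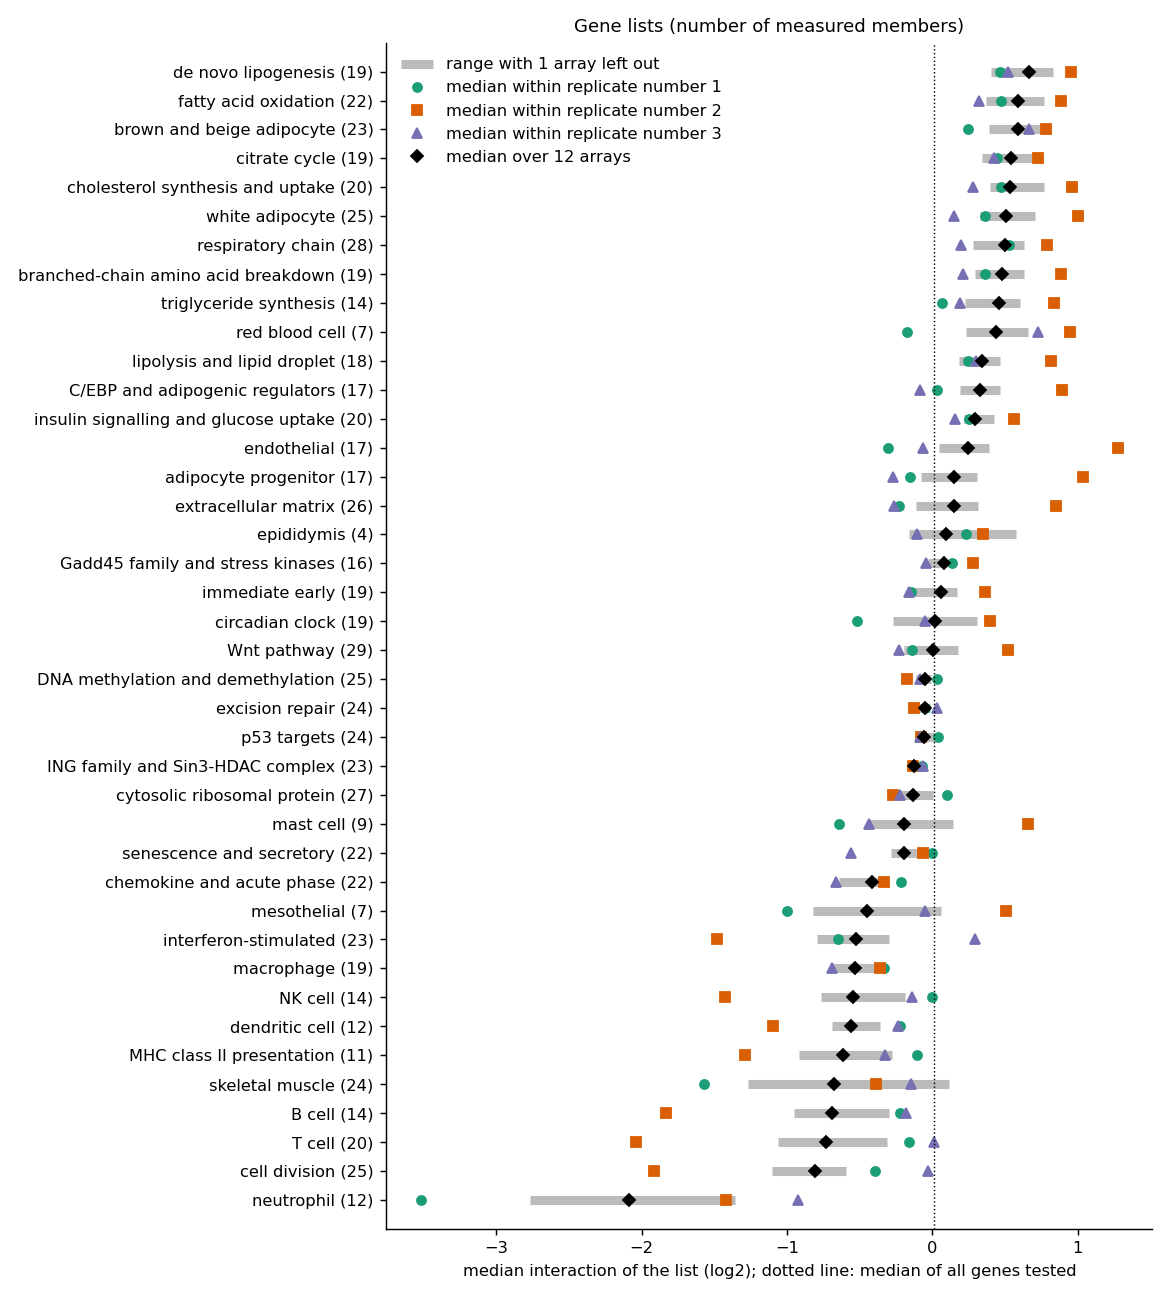
For each list (y axis, with its number of measured members) the diamond is the median interaction over 12 arrays on the log2 scale (x axis), the coloured points the medians within each replicate number, and the grey bar the range with 1 array left out. Metabolic lists lie to the right of the dotted median of all genes (0.59 for fatty acid oxidation), immune lists to the left (-2.09 for neutrophils, and -1.30 over its members above background on all arrays, not drawn), and the T cell point of replicate number 2 lies at -2.04.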

How the data were processed

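Total RNA of gonadal white fat was read on 12 Agilent arrays with 1 dye, Cy3. The deposited scanner files hold intensity values that, per the file headers, Feature Extraction 10.7.3.1 wrote, including a background-subtracted processed signal and, as 0 or 1, a flag for spots well above background. The authors also deposited log2 processed values, for which the submitters' processing notes name limma 3.26.9; these were used as an alternative.

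Outlier spots were left out, log2 processed signals of a probe were averaged, and each array was shifted to a common 75th percentile. Of 55681 probes, 27509 were named through RefSeq accessions, for 20887 genes. Probes well above background on at least 3 arrays were kept, with the brightest probe per gene. Linear models with 4 genotype means (limma 3.58.1 in R 4.3.3, intensity trend, robust empirical Bayes, 8 residual degrees of freedom) gave two-sided tests, adjusted by Benjamini-Hochberg over all 31453 features at 0.05. The fit was checked on simulated data for the size of its estimates. The noise there was drawn independently for each gene, while genes in these data move together. No conclusion on the power to call genes here is drawn from it.

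The genes and the 40 lists were chosen with earlier results of these data known. Named are Gadd45a and Ing1, in each direction 12 named genes by smallest p that were well above background on at least 2 arrays of every genotype, clones and predicted genes apart, and, of a list, at most 4 members by smallest p. Of 785 distinct list genes, some of them in several lists, 724 were measured. Replicate number equals slide. Every slide held an array of each genotype, so that slide is a complete block by design. Of 18 pairs of arrays with the same number, 9 had correlated deviations above 0.1 (range -0.28 to 0.42). For pairs with different numbers the range was -0.36 to 0.31. These correlations do not decide whether slide belongs in the model, and the main fit left it out. With the replicate block, 2810 genes had an unadjusted interaction p below 0.05 by limma, against 1866 in the main fit. In both fits 0 passed the adjusted threshold. Alternatives were other scaling, background correction, filters, probe choice, moderation, the authors' values, blocks for replicate number, array row and column, a linear scale, and each array left out. Fits without the 2 arrays highest in muscle transcripts and with slide and row together, and counts at an unadjusted p, were added after the data were seen. Some members of the lists are counted but not reported here by name.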

Additional observations from a re-analysis of the deposited data

How the results depend on the processing

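The count of genes past the adjusted threshold was 0 in all 26 fits, including the one with the replicate block, and the smallest adjusted p in any fit was 0.064, for Ccl12 without DKO replicate 3. The count at an unadjusted p below 0.05 was 1866; it was 929 with array column as a term and 2810 with the replicate block. Leaving out 1 array moved it between 1031 (without DKO replicate 2) and 4370 (without DKO replicate 3), and it was 1129 without Ing1-KO replicate 2 and 2901 without WT replicate 3. Gadd45a, Ing1 and the 24 genes chosen by p kept their sign in these fits and on the linear scale, on the probe used. Other filters, other moderation and the replicate block leave the estimate of such a gene as it is. The 24 genes were also chosen on this contrast, so nothing is read from the kept signs. An Ing1 probe that was not used had 0.17, the other sign. Of the list members named in the text, Csf3r changed sign in 1 alternative fit and Mmp9 in 4, the others in 0, and none passed the adjusted threshold in any. Normexp background correction moved the median interaction of all genes to 0.12 and no filter to 0.09, against 0.01. With 1 array left out, the median changed sign for skeletal muscle, mast cell, mesothelial, epididymis and adipocyte progenitor markers and for Gadd45 family, Wnt, circadian clock, immediate early, extracellular matrix, ribosomal protein and p53 genes. With array column as a term the median was 0.28 for triglyceride synthesis, -0.31 for NK cell, -0.44 for B cell and -1.65 for skeletal muscle markers. The number of arrays, 3 per genotype, limits the precision. The cause of the differences between fits was not tested.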

Other observations

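Lists not described above add the following values, with no test. Interferon-stimulated genes, such as the antiviral enzymes Oas1a and Oas2, had a median interaction of -0.53 with 22 of 23 negative and 4 at an unadjusted p below 0.05. Oas2 was 10.38, 10.73 and 11.23 in DKO, 11.62, 11.96 and 11.48 in Gadd45a-KO, 12.06, 11.99 and 10.86 in Ing1-KO, and 11.80, 11.05 and 11.41 in WT, with an interaction of -1.13 ± 0.45. The list median was -0.65, -1.48 and 0.29 within replicate numbers 1, 2 and 3, so that the third slide had the other sign, and it was -0.30 with WT replicate 2 left out, -0.33 with Ing1-KO replicate 1 left out and -0.25 without the 2 arrays highest in muscle transcripts.

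Dendritic cell markers had a median of -0.56 (10 of 12 negative), -0.36 without WT replicate 2 and -0.35 with normexp. Mast cell markers had -0.19 and mesothelial markers -0.45 over 9 and 7 members, and leaving out single arrays moved the mesothelial median between -0.82 and 0.06. Endothelial markers had 0.25 with 16 of 17 positive, yet -0.30, 1.28 and -0.06 within the replicate numbers. Adipocyte progenitor and extracellular matrix genes had 0.15 each, again with positive values only in number 2 (1.04 and 0.85). Red blood cell markers had 0.44 (7 of 7 positive), and 0.24 without DKO replicate 2 or 0.23 without Gadd45a-KO replicate 3. Within the replicate numbers their median was -0.18, 0.95 and 0.73. Regulators of adipocyte formation had 0.33 over 17 and 0.19 without WT replicate 2. Their median was 0.03, 0.89 and -0.09 within the replicate numbers, so that it was large in number 2 only. Cytosolic ribosomal proteins had -0.14 over 27, senescence and secretory genes -0.20 over 22 (-0.09 without Gadd45a-KO replicate 3 and -0.04 with normexp), immediate early genes 0.06 over 19 and the 4 measured epididymis markers 0.09.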
